A study of Mus musculus with 16 samples.

Results

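The genes of glycolysis and glycogen metabolism were followed in mouse rotator cuff muscle after a surgical tear. The list holds 41 genes, chosen by name for the steps from glucose to lactate, the glycerol phosphate side branch, and the building and breakdown of glycogen. Of these, 38 are in the deposited count table of 11710 genes and all 38 were tested. Aldoc, Pgam1 and Ppp1r3d were not analysed here. RNA sequencing covered 16 samples in 4 groups of 4, which cross 2 inbred strains with surgery: C57BL/6J (BL6), the common reference strain, or MRL/MpJ (MRL), a strain known for unusual wound healing. Unoperated control muscles were set against muscles that had undergone tenectomy, the removal of tendon, together with denervation. The effects of losing the tendon and losing the nerve cannot be told apart, since every operated muscle had both. Infraspinatus stands in the design text and supraspinatus in the sample labels, so the tissue is called rotator cuff muscle. Age, sex and the time from surgery were not used here. Nothing in the labels says that the 4 samples of a group came from separate animals, so p-values measure the spread between these samples, which may be technical.

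Skeletal muscle burns glucose through glycolysis, a chain of enzymes that splits the sugar into pyruvate, and it turns pyruvate into lactate when demand is high. Between bouts of work it stores glucose as glycogen, a branched polymer laid down by glycogen synthase and its branching enzyme and released by glycogen phosphorylase. Adult fast muscle uses its own forms of many of these enzymes (Pfkm, Eno3, Pgam2, Pygm), while other cells use broadly expressed forms (Pfkl, Pfkp, Eno1, Pygb). Phosphorylase kinase and a phosphatase held on glycogen by targeting subunits such as Ppp1r3a switch storage and release on and off.

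The members' promoters give a view of the sequence that lies ahead of these genes. Windows from 250 bases before to 50 bases after a transcript start were taken from RefSeq on GRCm38.p6, where 37 of the members matched with 55 windows. Gpd1 had none. Each was searched on both strands for ACGTG, the core bound by hypoxia-inducible factors and other basic helix-loop-helix proteins, for CACGTG, the E-box that contains ACGTG on each strand, and for the MEF2 consensus, the site of a muscle transcription factor family. ACGTG was found in 20 of the 37 members (54.1%), against 29.6% of the 9129 table genes with a window. CACGTG was found in 8 members (21.6%), against 12.1% of those genes. The MEF2 consensus was found in 1 member, Ppp1r3a (2.70%), against 0.701%. By window, ACGTG stood in 24 of 55 member windows (43.6%) and in 19.6% of all 32851 windows. A match says only that the letters are there.

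The 250 bases ahead of a start are shown for 4 members, 5′ to 3′ on the gene's strand, with motif matches in capitals. Ppp1r3a (chr6:14755275-14755524, minus strand), Pgm1 (chr4:99929201-99929450, plus strand) and Pfkfb3 (chr2:11502091-11502340, minus strand, 1 of its 2 windows) are shown because their transcripts fell the most in BL6 among glycogen targeting, glycogen synthesis and regulatory genes. Ldha (chr7:46845554-46845803, plus strand) is shown for contrast, since it has the same ACGTG letters and its transcript was called in neither strain.
Ppp1r3a: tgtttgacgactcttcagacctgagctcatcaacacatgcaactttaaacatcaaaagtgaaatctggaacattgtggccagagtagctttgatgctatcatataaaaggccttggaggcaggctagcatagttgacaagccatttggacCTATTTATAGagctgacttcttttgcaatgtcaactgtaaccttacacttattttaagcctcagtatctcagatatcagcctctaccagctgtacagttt
Pgm1: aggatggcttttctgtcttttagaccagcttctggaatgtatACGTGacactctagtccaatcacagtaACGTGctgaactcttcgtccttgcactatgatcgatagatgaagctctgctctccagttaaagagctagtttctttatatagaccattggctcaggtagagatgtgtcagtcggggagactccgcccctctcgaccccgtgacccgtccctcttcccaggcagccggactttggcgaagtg
Pfkfb3: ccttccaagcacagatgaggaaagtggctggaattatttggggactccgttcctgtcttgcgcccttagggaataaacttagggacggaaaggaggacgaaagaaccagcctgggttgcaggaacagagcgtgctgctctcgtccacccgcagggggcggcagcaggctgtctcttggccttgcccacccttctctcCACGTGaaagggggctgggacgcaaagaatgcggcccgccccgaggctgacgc
Ldha: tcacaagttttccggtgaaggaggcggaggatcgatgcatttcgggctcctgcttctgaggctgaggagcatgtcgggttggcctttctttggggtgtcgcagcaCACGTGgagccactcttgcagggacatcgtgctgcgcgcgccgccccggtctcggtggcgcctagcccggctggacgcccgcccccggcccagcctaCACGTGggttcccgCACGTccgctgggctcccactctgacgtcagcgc
In Ppp1r3a the capitals mark the MEF2 match, which starts 100 bases ahead of the transcript start. In Pgm1 they mark 2 ACGTG matches, in Pfkfb3 1 CACGTG, and in Ldha 2 CACGTG and 1 further ACGTG read on the other strand. Of the 20 members with ACGTG, 12 were called after surgery in at least 1 strain and 8 in neither (Pfkm, Aldoa, Pfkfb2, Gapdh, Pgk1, Pkm, Ldha and Ppp1r3c). Among all 38 members 15 were called in neither. Over all genes tested 67.9% were called in BL6, 45.0% in MRL and 40.8% in both. A link between these letters and the calls was not tested.

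Levels are given as CPM, the usual library-size-corrected read counts (counts per M reads), after scaling each library by its trimmed mean of M values (TMM) factor. Total counts ran from 24323862 to 43552964 per sample, so that 3 counts equalled 0.0689 to 0.123 CPM, and every member was far above that. These floors cover counting error only. The tissue label was checked by 13 myofibre genes, all present, whose summed level was 124400 to 179800 CPM in unoperated and 66370 to 165500 CPM in operated muscle. In 3 operated libraries the marker sums stood out together with the glycogen genes. Library 4 of operated BL6 stood apart the most. It had the lowest myofibre sum (66370 CPM), the highest fibroblast sum (8256 CPM for 10 genes) and the highest macrophage sum (617.7 CPM for 10 genes), with the lowest sum of the 14 glycogen genes (3547 CPM). Library 2 of operated BL6 had the highest myofibre sum of its group (165500 CPM), its lowest macrophage (96.77 CPM), fibroblast (1487 CPM) and Schwann cell (218.9 CPM) sums and its highest glycogen gene sum (10450 CPM). Library 4 of operated MRL had the lowest endothelial (417.1 CPM) and Schwann cell (126.5 CPM) sums of its group and its highest glycogen gene sum (8172 CPM). It also had the highest macrophage sum of that group (270.8 CPM). Its fibroblast sum (4194 CPM) was close to the group's highest (4348 CPM), and its myofibre sum (97040 CPM) was below the group's highest (115000 CPM). Without that library 4 members were called higher and 15 lower after surgery in MRL. The 13 genes of the mitochondrial genome in the table took 11.0 to 14.2% of counts in unoperated muscle and 17.4 to 24.9% in operated muscle, except 11.8% in library 4 of operated MRL.

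Per kilobase of transcript, the scale on which genes can be compared, the muscle enzymes led. In unoperated BL6 Aldoa, the aldolase of muscle, was at 9874 ± 736 CPM per kb (SD, n = 4), Eno3, the muscle enolase, at 4283 ± 100.4, Pgam2, the muscle phosphoglycerate mutase, at 2773 ± 129, and Pygm, muscle glycogen phosphorylase, at 2511 ± 275. Aldoa, Eno3 and Pgam2 kept the first 3 places in all 4 groups. Pygm ranked 4 in unoperated and 5 in operated muscle of both strains, where Pfkm, the muscle phosphofructokinase, ranked 4, and the spreads of these 2 genes overlapped in operated muscle (Pygm 1244 ± 604 and Pfkm 1248 ± 373 CPM per kb in operated BL6). Pygb, the brain form of phosphorylase, and Pgm2 were at the other end, at 1.56 ± 0.255 and 1.66 ± 0.271 CPM per kb in unoperated BL6, which do not differ beyond their spread. Gapdh, Pgk1 and Eno1 also ranked low, at 17.1, 18.1 and 11.2 CPM per kb in that group. Their counts are uncertain: 90.4%, 68.0% and 72.2% of the 50-base stretches of their transcripts also occur in other genes, for Gapdh in 222 genes of which 213 are pseudogenes, and how the authors counted reads that match several places is not given in the sources used here.

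After surgery more members were lower than higher in both strains, and the falls lay mostly among the glycogen, glycerol phosphate and Pfkfb genes. In BL6, 21 of the 38 members were called after surgery, 5 higher and 16 lower, by edgeR's quasi-likelihood test at an adjusted p under 0.05. Of all 11709 genes tested 67.9% were called in that comparison, 35.1% higher and 32.8% lower. In MRL 18 members were called, 4 higher and 14 lower, where 45.0% of all genes were called, 22.3% higher and 22.7% lower. The share of members called, 13.2% higher and 42.1% lower in BL6 and 10.5% higher and 36.8% lower in MRL, thus lay below the background on the higher side and above it on the lower side. The median log2 difference of the members was -0.33 in BL6 and -0.31 in MRL, beside 0.04 and 0.01 over all genes. The BL6 median was -0.18 without BL6 operated replicate 4 and -0.51 without BL6 operated replicate 2. Called in both strains were 16 members (42.1%), all in the same direction, a share near that of all genes called in both in 1 direction (40.8%). The comparisons share no samples. Every operated sample lay above every unoperated one for 4 members in BL6 and 3 in MRL, and below for 13 and 15. Of all genes 27.5% and 17.0% lay above in this way and 29.2% and 16.7% below. Without library 4 of operated BL6 the BL6 counts were 7 higher and 14 lower, without library 2 of that group they were 5 higher and 21 lower, and without MRL operated replicate 1 or 3 the MRL count of lower members was 9.

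**Figure D1:**
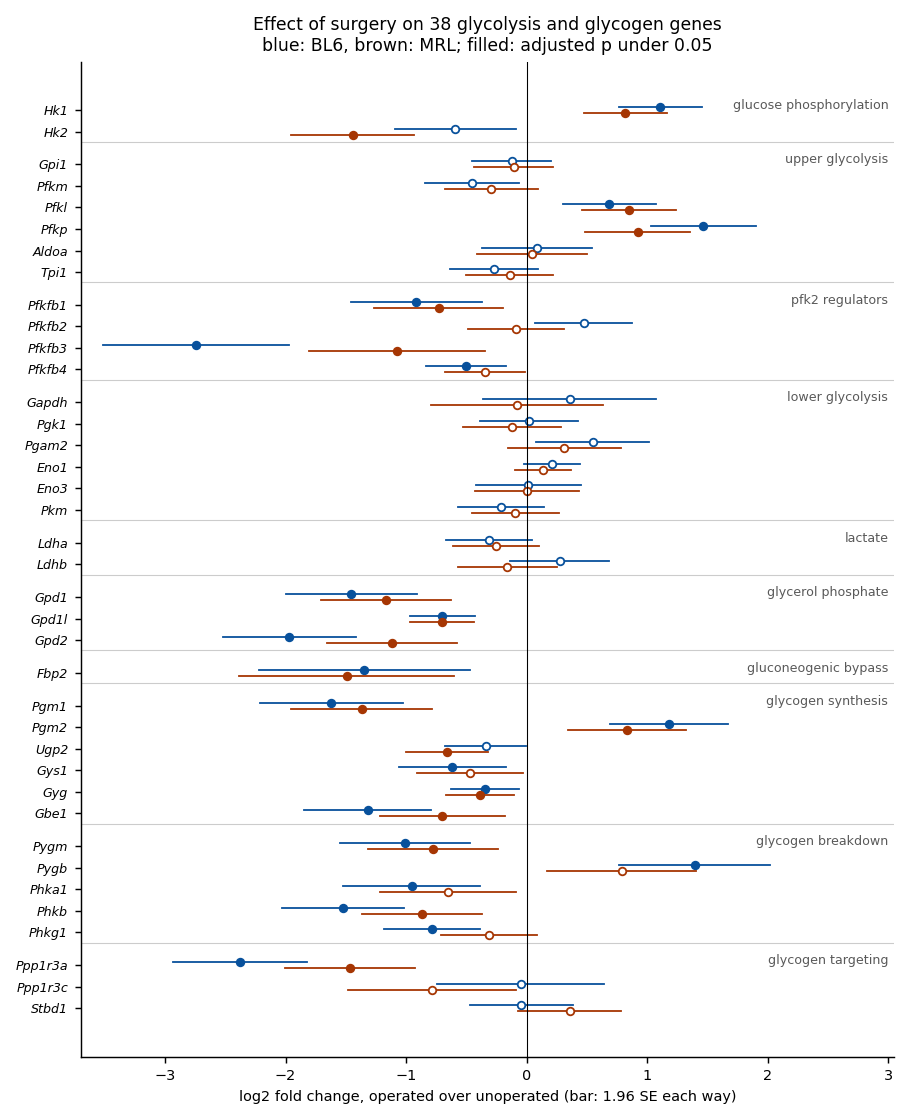
Log2 difference (operated minus unoperated) of each of the 38 members in BL6 and in MRL, grouped by role, with filled symbols for those called by edgeR at an adjusted p under 0.05. The glycerol phosphate genes all lie below 0 in both strains, while none of the lower glycolysis genes was called, the farthest from 0 being Pgam2 at 0.55 in BL6.

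Of the 14 glycogen genes 9 fell and 2 rose in BL6, and 7 fell and 1 rose in MRL. Of the 16 enzymes from glucose phosphorylation to lactate none fell and 3 rose in BL6, and 1 fell and 3 rose in MRL. The BL6 count of falls among these enzymes depended on values near the threshold: Hk2 and Pfkm passed as lower by DESeq2, by limma-voom and with total counts alone, and Hk2, Pfkm, Tpi1, Pkm and Ldha passed as lower without BL6 operated replicate 2. The BL6 count of rises did too, since Pgam2 passed as higher in some alternatives, among them DESeq2 and total counts alone. The medians were -0.70 and -0.66 for the glycogen genes and 0.05 and -0.09 for the glycolytic steps. Summed over the 14 glycogen genes, the level was 12060 to 14020 CPM in unoperated and 3547 to 10450 CPM in operated BL6, and 10780 to 12580 against 5572 to 8172 CPM in MRL. These groups did not overlap in either strain. Summed over the 16 glycolytic genes it was 32970 to 36970 against 19320 to 46170 CPM in BL6 and 29750 to 36190 against 27040 to 39610 CPM in MRL, and the groups overlapped in both.

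Other cell types' markers moved in the same samples. All 9 adipocyte markers were higher after surgery in both strains, with summed levels of 256.4 to 342.5 CPM in unoperated and 1375 to 2404 CPM in operated BL6, and 301.4 to 427.7 against 1510 to 2064 CPM in MRL. Of 8 endothelial markers 7 rose in BL6 and 8 in MRL, and of 7 Schwann cell markers 7 and 5. Of 10 macrophage markers 7 rose in BL6 and 1 in MRL, and of 10 fibroblast markers 7 and 2. The macrophage sum of MRL unoperated replicate 1 was 388.2 CPM, with 83.88 to 108.1 CPM in the rest of its group. Operated MRL had 143.7 to 270.8 CPM. For the fibroblast sum these values were 2906, 1647 to 1671 and 2270 to 4348 CPM. No marker of these 2 lists passed the test of whether surgery acted differently in the strains. Of the 13 myofibre markers 5 fell in BL6 and 4 in MRL, and none rose. Of 5 red cell markers none was called in either strain. Whether these shifts take part in the members' differences was not tested, and in bulk muscle fewer cells of a type and less RNA per cell cannot be told apart.

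**Figure D2:**
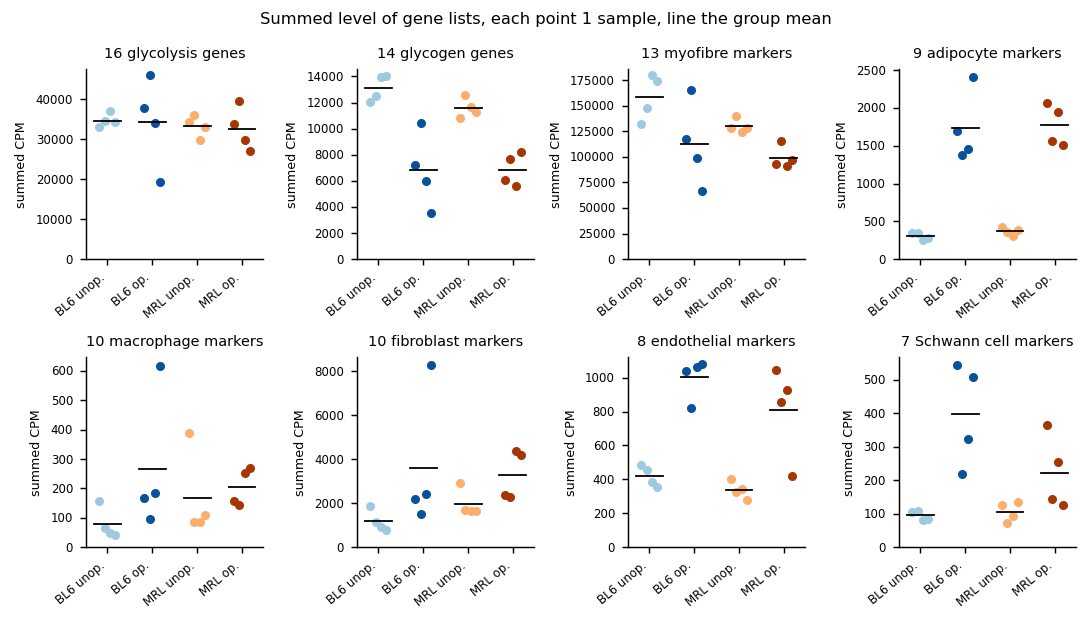
Summed CPM of the glycolytic genes, the glycogen genes and 6 lists of cell type markers, each point 1 sample and each line a group mean. The 14 glycogen genes lie lower in every operated sample than in any unoperated sample of the same strain, and library 4 of operated BL6 has the lowest myofibre sum and the highest fibroblast and macrophage sums.

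Among the glycogen genes the largest fall was in Ppp1r3a (chr6:14713977-14755274, minus strand, GRCm38), whose product holds protein phosphatase 1 on glycogen, where it activates glycogen synthase and quiets phosphorylase. Ppp1r3a was at 372, 380, 379 and 437 CPM in the 4 unoperated BL6 samples and at 80.7, 116, 69.6 and 35.9 CPM in the operated ones. MRL samples were at 309, 446, 446 and 401 CPM unoperated and at 115, 159, 107 and 198 CPM operated. Every operated sample lay below every unoperated sample of its strain. The log2 difference was -2.38 ± 0.28 (SE; edgeR adjusted p = 1.82e-05) in BL6 and -1.47 ± 0.28 (adjusted p = 0.00172) in MRL, a 5.20-fold and a 2.76-fold fall. The other members analysed among the glycogen targeting genes were not called. Ppp1r3c, another phosphatase targeting subunit, was at 330 ± 97.5 CPM unoperated and 319 ± 212 CPM operated in BL6 (log2 difference -0.05), and at 431 ± 51.5 and 250 ± 64.2 CPM in MRL (-0.79, edgeR adjusted p = 0.0802). The MRL groups of Ppp1r3c did not overlap, and it passed as lower there in some alternatives, among them DESeq2. Stbd1, which tethers glycogen to membranes, was at 51.3, 29.9, 25.3 and 23.9 CPM unoperated and 30.4, 37.1, 32.9 and 26.2 CPM operated in BL6. The MRL values were 44.7, 50.6, 41.8 and 49.6 against 59.9, 70.3, 40.4 and 68.3 CPM. The groups overlapped in both strains, and the log2 differences of -0.04 and 0.36 did not pass the test.

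Glycogen synthesis starts at phosphoglucomutase, which moves the phosphate of glucose between carbons. Pgm1 (chr4:99929414-99987294, plus strand) is here the gene of the muscle enzyme, and Pgm2 (chr5:64092950-64128351, plus strand) another family member. Older naming swaps these symbols. Pgm1 was at 1366, 1393, 1366 and 1397 CPM in unoperated and 406, 814, 366 and 210 CPM in operated BL6. In MRL the values were 1242, 1389, 1304 and 1174 against 374, 593, 388 and 624 CPM. The groups were apart in both strains, with log2 differences of -1.62 ± 0.30 (SE; edgeR adjusted p = 0.000299) and -1.37 ± 0.30 (adjusted p = 0.00332). Pgm2 went the other way from a low level, from 4.87, 3.73, 3.38 and 3.79 to 11.8, 8.17, 7.16 and 8.62 CPM in BL6. In MRL Pgm2 went from 5.13, 2.25, 3.26 and 3.14 to 7.71, 5.41, 7.14 and 4.24 CPM, where the groups overlapped. Its log2 differences were 1.18 ± 0.25 (edgeR adjusted p = 0.000755) and 0.83 ± 0.25 (adjusted p = 0.0153). Without MRL unoperated replicate 2, MRL operated replicate 1 or MRL operated replicate 3 the edgeR adjusted p of the latter was 0.0501 to 0.0527.

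Gbe1 (chr16:70313949-70569716, plus strand), the branching enzyme that makes glycogen compact, was at 73.4, 69.3, 75.4 and 76.3 CPM in unoperated and 28.4, 29.2, 35.1 and 25.2 CPM in operated BL6, which did not overlap. In MRL Gbe1 was at 75.3, 125, 141 and 150 against 61.2, 63.7, 45.9 and 131 CPM, which did. The log2 differences were -1.32 ± 0.27 (SE; edgeR adjusted p = 0.000593) and -0.70 ± 0.26 (adjusted p = 0.0415). The MRL call of Gbe1 was close to the threshold and held in 12 of 25 alternative fits. Of the fits without 1 library it held only without BL6 operated replicate 2, 3 or 4, MRL unoperated replicate 1 or MRL operated replicate 4, and the edgeR adjusted p was 0.129 without MRL operated replicate 3. Ugp2, which makes UDP-glucose, the building block of glycogen, was at 839, 765, 700 and 747 CPM in unoperated and 763, 660, 582 and 405 CPM in operated BL6, with an overlap and no call (log2 difference -0.34, edgeR adjusted p = 0.0914). In MRL Ugp2 fell from 1151, 1413, 1212 and 1497 to 827, 876, 686 and 942 CPM, without overlap (-0.66 ± 0.17, edgeR adjusted p = 0.00776). Gys1, muscle glycogen synthase, fell in BL6 (647 ± 68.8 to 422 ± 104 CPM, SD, n = 4; edgeR log2 difference -0.62, adjusted p = 0.0238), and the call was lost without BL6 operated replicate 4 (0.0667), BL6 unoperated replicate 3 (0.0605) or BL6 unoperated replicate 4 (0.0518). In MRL Gys1 was at 629 ± 108 and 454 ± 152 CPM and did not pass (-0.47, edgeR adjusted p = 0.0964). Gyg, the glycogenin that primes a new glycogen particle, had the smallest called differences, -0.35 and -0.39 (edgeR adjusted p = 0.0424 and 0.0382), and lost each call easily. The BL6 call of Gyg was lost without BL6 unoperated replicate 2, 3 or 4, BL6 operated replicate 1, 3 or 4, MRL unoperated replicate 2 or MRL operated replicate 1. The MRL call was lost without MRL unoperated replicate 2, 3 or 4 or MRL operated replicate 1 or 3.

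In glycogen breakdown the muscle phosphorylase fell in both strains, and the brain form rose in BL6 and lay near the threshold in MRL. Pygm (chr19:6384399-6398459, plus strand), whose loss causes McArdle disease, was at 6305, 6814, 7968 and 7778 CPM in unoperated and 3733, 5838, 3063 and 1667 CPM in operated BL6. For MRL the samples read 5093, 5811, 5234 and 4840 against 2602, 3512, 2462 and 3670 CPM. The groups were apart in both strains, and the log2 differences were -1.01 ± 0.28 (SE; edgeR adjusted p = 0.00448) and -0.78 ± 0.27 (adjusted p = 0.0315). The MRL call of Pygm was lost without MRL unoperated replicate 2 or 3 or MRL operated replicate 1 or 3 (edgeR adjusted p = 0.0587 to 0.0933). Pygb (chr2:150786735-150831758, plus strand) was at 7.06, 6.70, 5.87 and 4.82 CPM in unoperated BL6 and at 11.6, 9.30, 12.3 and 30.9 CPM in operated BL6, where the highest value belongs to library 4. In MRL Pygb was at 11.7, 7.26, 6.87 and 7.23 against 11.1, 11.7, 16.01 and 18.1 CPM, with an overlap through MRL unoperated replicate 1. Pygb rose in BL6 by 1.39 ± 0.32 (edgeR adjusted p = 0.00149), or by 0.85 without library 4 of the operated group (adjusted p = 0.00392). In MRL the Pygb difference of 0.79 did not pass (edgeR adjusted p = 0.0538), and it passed without MRL unoperated replicate 1 (1.01, adjusted p = 0.0261), BL6 operated replicate 2 or BL6 operated replicate 4. It also passed by DESeq2, by limma-voom and when only the groups compared were fitted.

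Phosphorylase kinase, the enzyme that activates phosphorylase, has regulatory alpha (Phka1) and beta (Phkb) subunits and a catalytic gamma subunit (Phkg1 in muscle). Phkb (chr8:85840959-86061376, plus strand) was at 361, 374, 430 and 462 CPM in unoperated and 139, 225, 123 and 77.7 CPM in operated BL6. MRL gave 302, 412, 430 and 381 against 184, 217, 157 and 277 CPM. Phkb fell without overlap in both strains, by 1.53 ± 0.26 on the log2 scale in BL6 (edgeR adjusted p = 0.000148) and by 0.87 ± 0.25 in MRL (adjusted p = 0.0132). Phka1 fell in BL6 from 736 ± 72.3 to 379 ± 200 CPM (SD, n = 4; log2 difference -0.96, edgeR adjusted p = 0.00911). In MRL Phka1 was at 552 ± 77.3 and 351 ± 70.3 CPM (-0.65, edgeR adjusted p = 0.0762). These MRL groups did not overlap, and Phka1 passed as lower in some alternatives, among them DESeq2 and total counts alone. Phkg1 fell in BL6 from 710 ± 39.3 to 413 ± 141 CPM (-0.78, edgeR adjusted p = 0.00339), and in MRL it was at 691 ± 41.1 and 555 ± 78.4 CPM (-0.32, edgeR adjusted p = 0.206). Its MRL groups did not overlap either. Phkg1 passed there without BL6 operated replicate 4, alone or together with MRL unoperated replicate 1. Of the 50-base stretches of the Phkg1 transcript 25.0% occur in other genes.

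**Figure D3:**
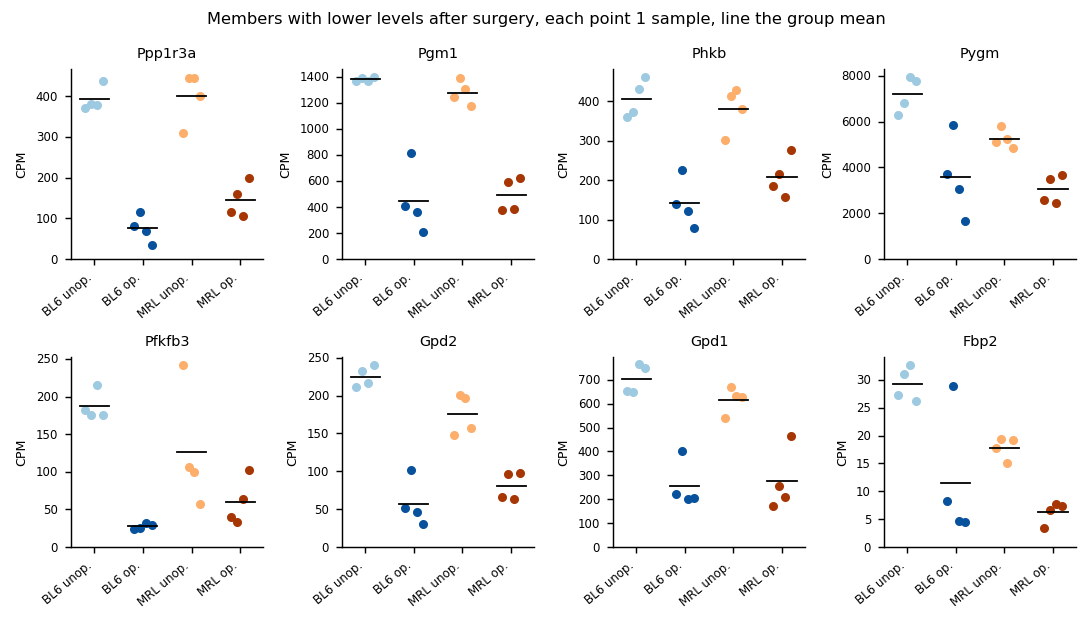
CPM of 8 members that fell after surgery in both strains, each point 1 sample and each line a group mean, all axes from 0. Operated samples lie below the unoperated samples of their strain, except for Fbp2 in library 2 of operated BL6 (28.8 CPM) and for Pfkfb3 in MRL, where the groups overlap.

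The level of fructose 2,6-bisphosphate, a strong activator of phosphofructokinase, is set by the enzymes of the Pfkfb family. Pfkfb3 (chr2:11471433-11554077, minus strand), the form with the highest ratio of kinase to phosphatase activity, had the largest difference of all members. It was at 182, 176, 216 and 175 CPM in unoperated BL6 and at 24.2, 25.7, 32.2 and 29.6 CPM in operated BL6, and no value of the groups came near another. MRL samples were at 241, 106, 99.5 and 56.9 CPM against 39.9, 33.3, 63.5 and 102 CPM, a wide spread with overlap. The log2 difference was -2.74 ± 0.39 (SE; edgeR adjusted p = 4.81e-05) in BL6, a 6.70-fold fall, and -1.07 ± 0.37 (adjusted p = 0.0291) in MRL. The MRL value rested on the highest library: without MRL unoperated replicate 1 it was -0.54 and not called (edgeR adjusted p = 0.158). The call was also lost without MRL operated replicate 1, 2 or 3 (edgeR adjusted p = 0.0851, 0.0809 and 0.0600). Pfkfb1, which has liver and muscle forms, fell in BL6 from 98.0 ± 10.4 to 52.0 ± 20.6 CPM (SD, n = 4; -0.92, edgeR adjusted p = 0.00852). In MRL Pfkfb1 fell from 115 ± 11.5 to 69.2 ± 23.9 CPM (-0.73, edgeR adjusted p = 0.0408). That call was lost without BL6 unoperated replicate 2 or 3, MRL unoperated replicate 2, 3 or 4 or MRL operated replicate 3 or 4. Pfkfb4 fell in BL6 (-0.50, edgeR adjusted p = 0.0152) and had -0.35 in MRL (0.102). Pfkfb2, the heart form, had 0.47 and -0.09 and passed in neither (edgeR adjusted p = 0.0512 and 0.728). In BL6 it passed as higher in some alternatives, among them DESeq2, total counts alone and the fit without BL6 operated replicate 4. It also passed as higher there in the authors' deposited comparison.

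At the entry of glucose Hk1 rose in both strains and Hk2 fell in MRL. Hk1 (chr10:62268855-62379908, minus strand), the broadly expressed form, was at 14.8, 10.03, 10.3 and 10.8 CPM in unoperated and 26.0, 20.6, 20.5 and 31.8 CPM in operated BL6. The MRL values were 14.2, 11.3, 10.2 and 11.5 against 20.7, 17.6, 26.1 and 18.8 CPM. Hk1 rose without overlap in both strains, by 1.11 ± 0.17 on the log2 scale in BL6 (edgeR adjusted p = 9.09e-05) and 0.82 ± 0.17 in MRL (adjusted p = 0.00302). Hk2 (chr6:82725025-82774454, minus strand), the insulin-responsive form of muscle, was at 384, 444, 499 and 502 CPM unoperated and 358, 408, 276 and 171 CPM operated in BL6. In MRL the values were 653, 874, 635 and 1101 against 258, 359, 213 and 370 CPM. Hk2 fell in MRL without overlap (-1.44 ± 0.26, edgeR adjusted p = 0.00136). In BL6 its groups overlapped and its log2 difference of -0.59 ± 0.26 lay just outside the threshold (edgeR adjusted p = 0.0510). It passed in 12 of 25 alternative fits, among them DESeq2, limma-voom and the fits without BL6 unoperated replicate 1 or BL6 operated replicate 1 or 2.

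Phosphofructokinase, the committed step of glycolysis, had called rises in its 2 rarer forms, while its muscle form lay near the threshold in BL6. Pfkm was at 4276, 4865, 5156 and 4856 CPM in unoperated and 3815, 4473, 3666 and 2018 CPM in operated BL6. For MRL the samples read 3953, 4555, 4006 and 4147 against 3145, 4011, 2890 and 3523 CPM. The groups overlapped in both strains, and differences of -0.46 ± 0.20 (SE; edgeR adjusted p = 0.0517) and -0.30 ± 0.20 (0.224) did not pass. In BL6 Pfkm was called lower in 7 of 25 alternative fits, which were total counts alone, DESeq2, limma-voom, the replicate block and the fits without BL6 unoperated replicate 1, BL6 operated replicate 2 or MRL operated replicate 4. Pfkl, the liver form, was at 14.5, 12.5, 12.4 and 11.3 against 19.2, 13.7, 20.2 and 28.5 CPM in BL6. In MRL Pfkl was at 13.1, 12.9, 9.64 and 11.2 against 17.0, 17.0, 23.6 and 26.7 CPM. It rose by 0.69 ± 0.20 in BL6, with an overlap through operated replicate 2, and by 0.85 ± 0.20 in MRL, with none (edgeR adjusted p = 0.00667 and 0.00466). Pfkp, the platelet form, was at 11.4, 8.07, 6.76 and 5.68 against 21.8, 17.7, 20.5 and 28.0 CPM in BL6. In MRL Pfkp was at 10.03, 8.79, 8.42 and 8.86 against 13.03, 13.9, 24.7 and 16.7 CPM. It rose without overlap in both, by 1.47 ± 0.22 and 0.92 ± 0.22 (edgeR adjusted p = 7.25e-05 and 0.00535).

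The other steps of the chain were called in neither strain. Aldoa, which splits the 6-carbon sugar, was at 13270, 14210, 15870 and 14320 CPM in unoperated and 17080, 21140, 14790 and 8147 CPM in operated BL6. In MRL Aldoa was at 14280, 15140, 12100 and 13010 against 14670, 17250, 13140 and 11040 CPM. Operated samples spread to both sides of the unoperated ones, and the lowest was library 4 of operated BL6. The log2 differences were 0.08 (95% interval -0.37 to 0.54) in BL6 and 0.04 (-0.41 to 0.50) in MRL. Eno3 was at 6270, 6198, 6396 and 6046 against 7164, 8184, 6406 and 3386 CPM in BL6, and at 6451, 6444, 5357 and 6246 against 6603, 7698, 5393 and 4829 CPM in MRL. Its differences of 0.01 (-0.42 to 0.45) and 0.00 (-0.43 to 0.44) leave room for a change of up to 0.45 either way. Pgam2 was at 2390, 2388, 2370 and 2168 against 3766, 4428, 3467 and 1964 CPM in BL6, so that library 4 alone kept the groups from being apart. The Pgam2 difference of 0.55 ± 0.24 did not pass (edgeR adjusted p = 0.0525) and was 0.73 without that library (adjusted p = 0.00504). With library 4 kept, Pgam2 passed as higher in BL6 by DESeq2, with total counts alone, with a stricter low-count filter and with a replicate block. It also passed without MRL operated replicate 4 and in the authors' deposited comparison. In MRL Pgam2 was at 3176, 2847, 2220 and 2791 against 4028, 4227, 3363 and 2085 CPM (0.31, edgeR adjusted p = 0.288).

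Gpi1, which acts right after hexokinase, and Tpi1, Gapdh, Pgk1 and Pkm, which act after the sugar is split, had log2 differences between -0.27 and 0.35 in BL6 and between -0.14 and -0.08 in MRL. Pgk1 and Gapdh carry the uncertainty of their shared sequence, and Gapdh in addition spread from 9.84 to 46.3 CPM in operated BL6. Eno1, the broadly expressed enolase, was at 22.4, 24.2, 21.2 and 22.8 against 24.8, 25.5, 23.0 and 31.5 CPM in BL6, with 0.21 ± 0.12 (SE; edgeR adjusted p = 0.123). In MRL Eno1 was at 14.8, 13.2, 10.7 and 12.4 against 12.6, 14.7, 12.9 and 15.9 CPM, with 0.14 ± 0.12 (edgeR adjusted p = 0.362). Lactate dehydrogenase, which ends anaerobic glycolysis, has an A subunit of fast muscle and a B subunit of heart and slow muscle. Ldha was at 1730, 1590, 1710 and 1675 against 1324, 1933, 1255 and 890 CPM in BL6, and at 1535, 1662, 1395 and 1522 against 1211, 1435, 1124 and 1359 CPM in MRL. Ldhb was at 164, 212, 259 and 248 against 317, 229, 340 and 182 CPM in BL6, and at 162, 176, 189 and 199 against 217, 134, 128 and 170 CPM in MRL. All of these groups overlapped, and none passed (edgeR adjusted p = 0.137 and 0.257 for Ldha, 0.256 and 0.540 for Ldhb). Without BL6 operated replicate 2, Ldha (-0.54, edgeR adjusted p = 0.00482), Tpi1 (-0.48, 0.0150) and Pkm (-0.39, 0.0469) passed as lower in BL6.

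All 3 glycerol phosphate dehydrogenases fell in both strains. Gpd1 in the cytosol and Gpd2 in the mitochondrial membrane form a shuttle that passes electrons from glycolysis to the respiratory chain, and Gpd1 also makes glycerol phosphate for lipids. Gpd1 (chr15:99717515-99725005, plus strand) was at 653, 649, 764 and 747 CPM unoperated and 220, 401, 200 and 205 CPM operated in BL6. MRL gave 540, 668, 631 and 629 against 170, 254, 209 and 464 CPM. Every operated value of Gpd1 lay below every unoperated one, with log2 differences of -1.45 ± 0.28 (SE; edgeR adjusted p = 0.000365) and -1.17 ± 0.28 (adjusted p = 0.00478). Gpd2 (chr2:57237635-57370719, plus strand) was at 211, 232, 216 and 240 against 51.6, 102, 46.2 and 30.3 CPM in BL6. In MRL Gpd2 was at 148, 200, 197 and 157 against 66.0, 96.7, 63.0 and 97.6 CPM. It too fell without overlap, by 1.97 ± 0.28 and 1.12 ± 0.28 on the log2 scale (edgeR adjusted p = 4.76e-05 and 0.00591). Gpd1l, a relative of Gpd1, was at 38.8, 43.9, 43.6 and 44.2 against 23.6, 26.7, 28.7 and 26.0 CPM in BL6 and at 53.5, 67.7, 65.5 and 67.5 against 35.6, 36.7, 31.2 and 52.6 CPM in MRL. Its groups were apart, and its difference was -0.70 ± 0.14 in both (edgeR adjusted p = 0.000443 and 0.00195).

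Fbp2 (chr13:62836877-62858422, minus strand), the muscle fructose bisphosphatase that reverses the phosphofructokinase step, was at 27.4, 31.1, 32.6 and 26.2 CPM in unoperated BL6. In operated BL6 it was at 8.23, 28.8, 4.72 and 4.52 CPM, so that library 2 alone stayed within the unoperated range. In MRL Fbp2 was at 17.8, 19.4, 15.1 and 19.2 against 3.45, 6.69, 7.78 and 7.34 CPM, without overlap. The log2 differences were -1.35 ± 0.45 (SE; edgeR adjusted p = 0.0149) and -1.49 ± 0.46 (adjusted p = 0.0162). Without BL6 operated replicate 2 the BL6 value was -2.34, and without MRL operated replicate 1 the MRL call was lost (edgeR adjusted p = 0.0512). Library 2 of operated BL6 also held the highest Gpd1, Gpd2 and Pgm1 of its group.

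A ratio of 2 genes within a library does not depend on how libraries are scaled. For 7 pairs of enzyme forms the log2 ratio was compared between operated and unoperated samples with exact two-sided permutation tests, 14 in all. With 4 against 4 samples the exact p cannot go below 0.0286. In these data that smallest p adjusted to 0.05 over the 14, a value that depends on how many of the tests reached it. It is not under the threshold of 0.05, so none of the 14 differences passed after adjustment. Hk1 relative to Hk2 had differences (operated minus unoperated) of 1.76 in BL6 and 2.26 in MRL (exact p = 0.0286, adjusted 0.05, in each). Pfkp relative to Pfkm had 2.003 and 1.181 and Pygb relative to Pygm 2.38 and 1.59 (exact p = 0.0286, adjusted 0.05, in each of the 4). In all of these every operated sample lay above every unoperated sample. Pfkl relative to Pfkm differed by 1.15 in BL6 with an overlap (exact p = 0.0571, adjusted 0.0889) and by 1.13 in MRL without one (exact p = 0.0286, adjusted 0.05). Expressed per transcript length, Hk1 was 3.75% ± 1.17 of Hk1 plus Hk2 in unoperated and 12.3% ± 6.60 in operated BL6 (SD, n = 4), and 2.26% ± 0.709 and 10.1% ± 4.08 in MRL. The other broadly expressed forms stayed rare. Pygb was 0.0636% ± 0.0168 and 0.495% ± 0.570 of Pygb plus Pygm in BL6, with 1.34% in library 4 of the operated group and at most 0.294% in the other operated samples. In MRL Pygb was 0.116% ± 0.0351 and 0.348% ± 0.0977.

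Library 4 of operated BL6 was the highest operated BL6 sample in the Hk1, Pfkl, Pfkp, Eno1 and Pygb shares. Without it the BL6 differences were 1.38 for Hk1 over Hk2, 1.64 for Pfkp over Pfkm and 1.68 for Pygb over Pygm (exact p = 0.0571, 0.0571 and 0.0286). The operated and unoperated samples overlapped for Eno1 over Eno3 (0.26 and 0.16, exact p = 0.886 and 0.600) and for Ldhb over Ldha (0.62 and 0.07, exact p = 0.114 and 0.771) in both strains. Gpd2 relative to Gpd1 differed in BL6 by -0.59, with shares of 14.1% ± 1.15 unoperated and 9.91% ± 1.97 operated that did not overlap (exact p = 0.0286, adjusted 0.05). In MRL the share was 12.6% ± 1.09 and 13.9% ± 3.18 (difference 0.14, exact p = 0.571). The test of that difference between strains gave 0.73 with an exact permutation p of 0.0249, which adjusts to 0.174 over the 7 pairs.

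**Figure D4:**
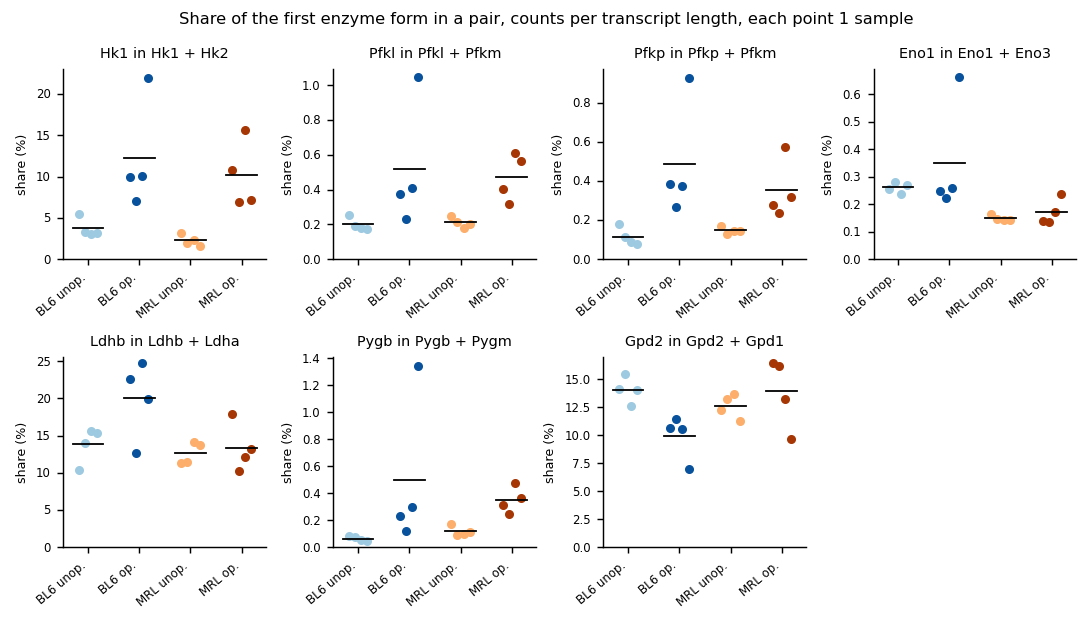
Share of the first enzyme form in each of 7 pairs, in % of the pair's counts per transcript length, each point 1 sample and each line a group mean. The Hk1 share is higher in every operated sample than in any unoperated sample of its strain, and library 4 of operated BL6 is the highest point for Hk1, Pfkl, Pfkp, Eno1 and Pygb.

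No member passed the test of whether surgery acted differently in the strains. The interaction called 0 of the 38, by edgeR and also by DESeq2 and limma-voom, where edgeR called 29 of all genes (0.248%, with 0.154% higher and 0.0939% lower). At an unadjusted p under 0.05 there were 4 members, Hk2, Pfkfb3, Gpd2 and Ppp1r3a, among 1843 of all genes. Their differences between strains (MRL effect minus BL6 effect, log2) were -0.85 ± 0.36 for Hk2, 1.67 ± 0.53 for Pfkfb3, 0.85 ± 0.39 for Gpd2 and 0.91 ± 0.38 for Ppp1r3a (SE; edgeR adjusted p = 0.280, 0.183, 0.302 and 0.278). Gpd2 passed in 1 fit, without BL6 operated replicate 2 (1.28). The genes called in one strain only, which are Pfkfb4, Gys1, Pygb, Phka1 and Phkg1 in BL6 and Hk2 and Ugp2 in MRL, are therefore not shown to differ between strains. By the authors' deposited comparisons Pfkfb4, Gys1, Pygb, Phka1 and Phkg1 passed in MRL too. Hk2 and Ugp2 did not pass in BL6 there.

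Among unoperated muscles 4 members differed between strains, 3 higher and 1 lower in MRL, where 10.4% of all genes were called, 5.02% higher and 5.36% lower. Among operated muscles 6 members did, 4 higher and 2 lower in MRL, where 12.9% of all genes were called, 7.60% higher and 5.27% lower. Of all called genes 48.4% were higher in unoperated and 59.1% in operated MRL, and 70.3% and 72.2% where libraries were scaled by total counts alone. Unoperated MRL lay wholly above unoperated BL6 for 4 members and below for 6, where 12.2% of all genes lay above and 12.9% below. Operated MRL lay wholly above for 4 and below for 1, where 7.41% and 6.16% of all genes did. Each group in these comparisons also serves in a surgery comparison. Eno1 was lower in MRL in both states, with every MRL value of 10.7 to 15.9 CPM below every BL6 value of 21.2 to 31.5 CPM. Its log2 differences were -0.83 ± 0.12 unoperated and -0.90 ± 0.12 operated (SE; edgeR adjusted p = 0.000194 and 8.13e-05). Gpd1l was higher in MRL in both states, by 0.58 ± 0.14 and 0.57 ± 0.14 (edgeR adjusted p = 0.0115 and 0.0112), and its groups were apart in each state. The Gpd1l call among operated muscles was lost when only the groups compared were fitted. The reads of MRL mice and of BL6 mice were counted on a genome of the BL6 strain, mm10, per the submitters' processing notes. An effect of strain sequence on these counts was not tested, and for Eno1 72.2% of its sequence is shared with other genes.

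Ugp2 was higher in unoperated MRL without overlap (0.79 ± 0.17, edgeR adjusted p = 0.00685), and among operated muscles it had 0.47 (adjusted p = 0.0920). Hk2 was higher in unoperated MRL, 816 ± 219 against 457 ± 55.7 CPM (SD, n = 4), by 0.84 ± 0.26, at the edge of the threshold (edgeR adjusted p = 0.0490), and 12 of 25 alternative fits kept the call. Of the fits without 1 library only those without BL6 operated replicate 2 or 4, MRL unoperated replicate 3 or MRL operated replicate 3 or 4 kept it. After surgery Hk2 was at 303 ± 104 CPM in BL6 and 300 ± 76.8 CPM in MRL. Gbe1 was higher in operated MRL by 1.36 ± 0.27 (edgeR adjusted p = 0.00304), and every one of its MRL values of 45.9 to 131 CPM lay above the BL6 values of 25.2 to 35.1 CPM. In unoperated muscle Gbe1 was at 123 ± 33.1 CPM in MRL and 73.6 ± 3.08 CPM in BL6 and was not called. It passed there in some alternatives, among them DESeq2 and the fit without MRL unoperated replicate 1. Stbd1 was higher in operated MRL by 0.92 ± 0.22 without overlap (edgeR adjusted p = 0.0115). Ppp1r3a was higher by 0.94 ± 0.27 (edgeR adjusted p = 0.0334) and Ldhb lower by 0.72 ± 0.21 (adjusted p = 0.0345), both with an overlap. These 2 calls were lost in several fits: for Ppp1r3a without BL6 operated replicate 1 or 3 or MRL operated replicate 2 or 4, and for Ldhb without BL6 operated replicate 1 or 3 or MRL operated replicate 2, 3 or 4 (edgeR adjusted p = 0.0513 to 0.118). Both were also lost when only the groups compared were fitted, and Ldhb with the replicate block.

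**Figure D5:**
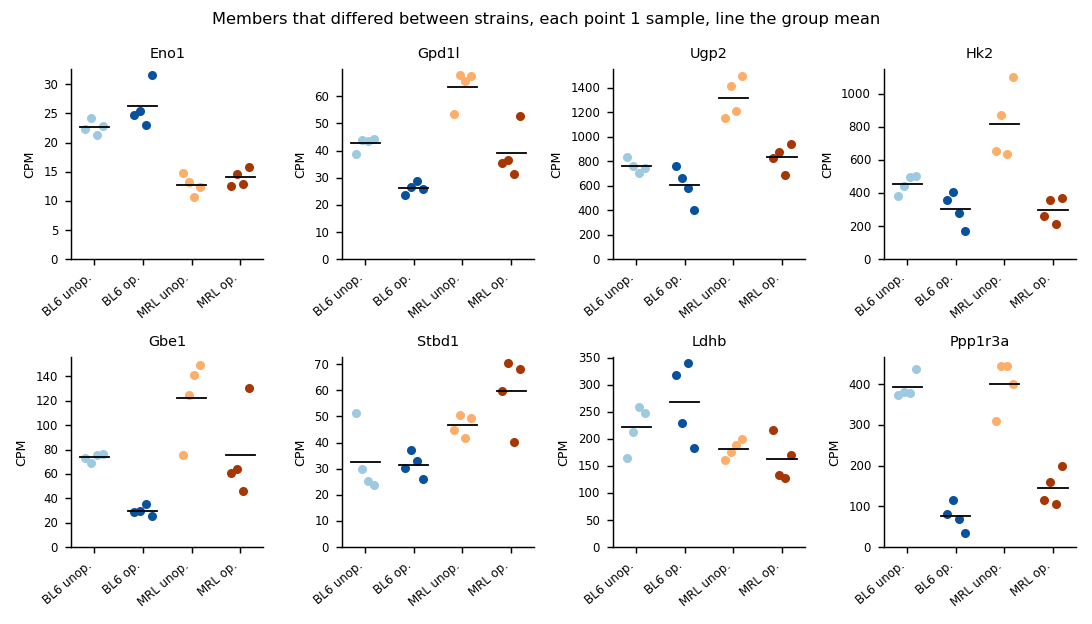
CPM of the 8 members that differed between strains in either state, each point 1 sample and each line a group mean, all axes from 0. Every MRL value of Eno1 lies below every BL6 value, and the unoperated MRL samples lie above the unoperated BL6 samples for Gpd1l, Ugp2 and Hk2.

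A further 55 genes of the same chemistry were listed, of which 45 were analysed. After surgery 13 were higher and 22 lower in BL6 (28.9% and 48.9%), and 7 higher and 22 lower in MRL (15.6% and 48.9%). Over all genes tested 35.1% were higher and 32.8% lower in BL6, and 22.3% and 22.7% in MRL. Of 11 genes of glucose and lactate transport, 7 fell and 1 rose in BL6 and 8 fell and none rose in MRL. Slc2a3, a neuronal-type glucose carrier, fell by 1.51 ± 0.29 and 1.82 ± 0.29 on the log2 scale (edgeR adjusted p = 0.000344 and 0.000711), and Slc2a1, the basal carrier, rose by 0.63 ± 0.20 in BL6 (adjusted p = 0.0124). Of 17 other glycogen genes 10 fell and 3 rose in BL6 and 8 fell and 1 rose in MRL. They include Epm2a, the glycogen phosphatase laforin, at -1.91 ± 0.32 in BL6 and -0.90 ± 0.31 in MRL (edgeR adjusted p = 0.000127 and 0.0276), and Pygl, liver phosphorylase, at 1.89 ± 0.67 in BL6 (adjusted p = 0.0207). Calm3, a calmodulin gene whose protein is also a subunit of phosphorylase kinase, fell by 1.69 ± 0.21 in BL6 and 1.29 ± 0.20 in MRL (edgeR adjusted p = 1.95e-05 and 0.000711). Of 9 other glycolytic or gluconeogenic genes 4 rose and 3 fell in BL6 and 4 rose and 4 fell in MRL, with the largest rise in Pck1, which feeds glycerol phosphate synthesis in fat cells (3.52 ± 0.87 and 3.06 ± 0.84, edgeR adjusted p = 0.00242 and 0.00993). Pck1 stood beside the adipocyte markers, whose median differences were 2.76 and 2.32, and their part in it was not tested. Of the 8 pentose phosphate genes 5 rose and 2 fell in BL6 and 2 rose and 2 fell in MRL, led by Tkt, transketolase (1.89 ± 0.39 and 1.30 ± 0.38, edgeR adjusted p = 0.000689 and 0.0138), and H6pd, the enzyme of the endoplasmic reticulum (-1.19 ± 0.16 and -0.71 ± 0.16, adjusted p = 3.26e-05 and 0.00369).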

How the data were processed

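RNA from 16 mouse rotator cuff muscles was sequenced, with 4 samples in each of 4 groups of strain and surgery, taken from the titles. The authors deposited a table of read counts per gene, unscaled whole numbers, together with log2 fold changes and p-values of their own comparisons. Per the submitters' processing notes FastQC, STAR, edgeR and the mm10 genome were used; versions, annotation, strand setting and the treatment of reads matching several places are not given in the sources used here. Of 11710 gene IDs 11708 matched GENCODE M21 (GRCm38).

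The counts were fitted with edgeR 4.0.16 in R 4.3.3 (quasi-likelihood, all 16 samples in one fit, TMM scaling, filterByExpr with a minimum count of 10, which removed 1 gene), p-values were adjusted by Benjamini-Hochberg over 11709 genes, and genes under an adjusted p of 0.05 were called. CPM are TMM-scaled. Standard errors come from the log2 difference and the F statistic. Log2 ratios used a prior count of 0.5. DESeq2 1.42.0, limma-voom 3.58.1, other scalings, filters and left-out samples were alternatives. Shared sequence was counted as 50-base stretches of the principal transcript found in other genes. No pair of replicates agreed within counting noise (24 pairs, smallest chi-square per degree of freedom 14.8). The pipeline was tested on simulated data.

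Members and lists were chosen with earlier results of these data known. All 38 members could be named. Every sample's value is given for members called after surgery with a log2 difference of at least 1, members of enzyme pairs and members called between strains, and other lists by counts, with the called gene that rose or fell the most. Genes named beyond that rule, such as Pgam2 and Aldoa in full, were chosen after their values were seen. In the authors' deposited table members passed after surgery in BL6 (7 higher, 15 lower) and MRL (5 higher, 18 lower), of which 20 and 17 are called here.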

Additional observations from a re-analysis of the deposited data

Results flagged for a closer look

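Single samples far from the other 3 of their group were found in 11 of 152 sets of 4 values (gap over range above 0.829, Dixon's 95% value for 4 samples), where chance marks about 1 in 20. In operated BL6 the marked sample of Fbp2 was replicate 2 at 28.82 CPM (others 4.521 to 8.234 CPM), that of Gpd1 was again replicate 2 at 401.2 CPM (others 200.4 to 220.5 CPM), and that of Pygb was replicate 4 at 30.85 CPM (others 9.297 to 12.28 CPM). In unoperated BL6, replicate 1 stood apart for Hk1 at 14.75 CPM (others 10.03 to 10.8 CPM), for Gapdh at 35.81 CPM (others 16.11 to 18.24 CPM) and, on the low side, for Gpd1l at 38.84 CPM (others 43.63 to 44.22 CPM). Replicate 2 of that group stood apart for Pgk1 at 38.1 CPM (others 31.16 to 31.36 CPM), and replicate 4 for Ppp1r3a at 436.7 CPM (others 372.3 to 380.4 CPM) and, on the low side, for Pgam2 at 2168 CPM (others 2370 to 2390 CPM). In unoperated MRL, replicate 1 stood apart for Pygb at 11.65 CPM (others 6.87 to 7.258 CPM) and, on the low side, for Gpd1l at 53.52 CPM (others 65.47 to 67.73 CPM).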

How the results depend on the processing

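Of the members called after surgery, 19 of 21 in BL6 and 11 of 18 in MRL were called in every alternative that gave a value (DESeq2 gave no adjusted p for Fbp2), as were 3 of 4 between unoperated and 3 of 6 between operated strains. Leaving out 1 library gave 5 to 7 higher and 14 to 21 lower members in BL6, 3 to 5 higher and 9 to 17 lower in MRL, 0 to 1 with an interaction, 3 to 6 differing between unoperated and 4 to 9 between operated strains. Fitting only the groups compared gave 11 members differing between unoperated and 3 between operated strains, and leaving out MRL unoperated replicate 1 together with BL6 operated replicate 4 gave 7 between unoperated strains. The ratio differences that turned direction were Eno1/Eno3 in BL6 (-0.103 without BL6 operated replicate 4, up to 0.424), Eno1/Eno3 in MRL (-0.013 without MRL operated replicate 4, up to 0.249) and Ldhb/Ldha in MRL (-0.108 without MRL operated replicate 1, up to 0.206); the cause was not tested. Over all genes the interaction calls were 29, against 2 with a replicate block, 250 by DESeq2, 14 with total counts alone and, leaving out 1 library, from 1 (without BL6 unoperated replicate 2 or 4 or MRL operated replicate 1) to 69 (without BL6 operated replicate 2). Calls over all genes after surgery in MRL fell from 5272 to 3490 without MRL operated replicate 3. Calls over all genes between unoperated strains were 1216 against 2438, and between operated strains 1507 against 575, when only the groups compared were fitted. Scaling by total counts alone moved the median of all genes in BL6 from 0.04 to 0.18 and the share of higher calls from 51.7% to 60.2%.

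Correlations of the deviations of same-numbered samples ran from -0.474 to 0.452. For 3 of the 4 numbers they were over 0.1 between the unoperated strains, between the operated strains and between the states of MRL, but not for all 4 in any pair of groups, and no more than 4 of 8 samples correlated best with their own number, so the numbers were not taken to pair the samples. With a replicate block the member counts were 7 higher and 17 lower in BL6, 4 higher and 15 lower in MRL, 0 with an interaction, and 5 and 5 between unoperated and operated strains, while the paired exact test of the ratios cannot go below p = 0.125.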
